A study of Mus musculus with 2 samples.

Results

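The Mmp-high macrophages described here are tumour macrophages with high RNA of Mmp12 and Mmp13, 2 secreted proteases that cut elastin and fibrillar collagen. They came from single-cell RNA sequencing of tumours that MC38, a cell line of mouse colorectal cancer, had formed 21 days after engraftment into mice. One library was made from tumours of TMEM16F KO cells and 1 from tumours of vector control cells. TMEM16F, the product of Ano6, is a membrane protein that moves phosphatidylserine between the leaflets of the plasma membrane, and it was deleted in the engrafted cells, so the macrophages of both libraries came from the host. The labels give both groups as tumour tissue of untreated mice, while the design text speaks of lymphocytes that had entered the tumour. The sources used here do not say how many mice or tumours made up a library, their strain or age, or whether the KO line was a single clone.

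A barcode was counted as an Mmp-high macrophage with at least 1000 UMIs (unique molecular identifiers, 1 for each RNA molecule counted), at least 40 UMIs of C1qa, C1qb and C1qc together per 10000, at least 5 UMIs of Mmp12 and Mmp13 together per 10000, at most 2 UMIs of the 3 Cd3 genes and at most 1 UMI of Mki67 and Top2a. This rule found 471 of 5993 barcodes in the TMEM16F KO library and 448 of 5253 barcodes in the vector control library, 919 of 11246 in all. The same rule with fewer than 5 UMIs of Mmp12 and Mmp13 per 10000 gave 1071 Mmp-low macrophages in the TMEM16F KO library and 1123 in the vector control library, and both kinds together are called C1q macrophages. The measured values of the C1q genes, Mmp12, Mmp13, the Cd3 genes, Mki67 and Top2a therefore chose the cells, and levels of these genes are given as a description. With 1 library for each group no difference can be set against the spread between tumours, so none was tested. Intervals are exact at 95% and cover counting error only.

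Macrophages enter tumours mostly as blood monocytes and take up different states there, which overlap and depend on oxygen, cytokines and the dead cells they clear. Matrix metalloproteinases are made as inactive zymogens, are cut to become active, and are held in check by tissue inhibitors such as the Timp proteins. Mmp12, the macrophage elastase, degrades elastin and trims chemokines, and Mmp13, a collagenase, cuts fibrillar collagens. Both lie in a cluster of Mmp genes on mouse chromosome 9, and Mmp genes of this cluster often carry a binding motif of the AP-1 factors (Fos and Jun proteins) close to the start of transcription.

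The promoters of the 2 genes that define the cells are shown because both hold an AP-1 motif near a RefSeq start. For Mmp12 this holds only at the start shown, and not at the one near which the GENCODE gene begins. Each line gives the 250 bases before a RefSeq start (GRCm38.p6, plus strand) from 5′ to 3′, with matches on either strand to 2 motifs in capitals. The AP-1 motif searched was TGANTCA (its reverse strand reads the same way). The TATA box motif searched was TATAAA.
Mmp13, chr9:7272264-7272513: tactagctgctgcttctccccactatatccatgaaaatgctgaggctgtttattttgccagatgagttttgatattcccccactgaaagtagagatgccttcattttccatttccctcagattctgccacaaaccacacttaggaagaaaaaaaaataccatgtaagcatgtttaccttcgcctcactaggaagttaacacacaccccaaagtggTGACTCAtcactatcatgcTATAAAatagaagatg
Mmp12, chr9:7347124-7347373: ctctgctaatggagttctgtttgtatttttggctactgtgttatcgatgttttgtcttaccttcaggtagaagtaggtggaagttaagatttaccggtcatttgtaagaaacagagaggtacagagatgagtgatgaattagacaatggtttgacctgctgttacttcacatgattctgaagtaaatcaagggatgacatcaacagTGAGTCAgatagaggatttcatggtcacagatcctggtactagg
The Mmp13 window held 1 AP-1 match, starting 35 bases before the start, and 1 TATA box match, starting 16 bases before it, and the matches do not overlap. The Mmp12 window held 1 AP-1 match, starting 44 bases before the start, and no TATAAA. RefSeq lists a second start of Mmp12 farther upstream, near which the GENCODE gene begins, and its window, chr9:7344147-7344396, held neither motif. Among all 32817 promoter windows of this length in the RefSeq table, 6.75% held an AP-1 match and 12.4% a TATA box match on either strand. A match describes letters in a window and no binding was measured.

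The libraries were of like depth, with 49777630 UMIs in the TMEM16F KO library and 46338994 in the vector control library, but the Mmp-high macrophages were not. Their median was 12009 UMIs in the TMEM16F KO library and 9005 in the vector control library, and their quartiles were 6640.5 to 17817.5 and 2767.75 to 15564.5 UMIs. Mmp-low macrophages had a median of 8595 UMIs in the TMEM16F KO library and 9204 in the vector control library. The median mitochondrial share of the Mmp-high macrophages was 0.0744% in the TMEM16F KO library and 0.0724% in the vector control library. The 2 libraries shared 10 barcode sequences, of which 0 were TMEM16F KO and 1 was a vector control Mmp-high macrophage.

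The cells carried the general identity of macrophages outside the genes of the rule. All 12 genes of a macrophage list were measured, among them Csf1r, the receptor for the growth factor CSF1, at 146 CPM (UMIs in 1000000 UMIs of the summed cells) in TMEM16F KO and 175 CPM in vector control Mmp-high macrophages, and Cd68, a lysosomal glycoprotein, at 719 CPM in TMEM16F KO and 642 CPM in vector control cells. Against Mmp-low macrophages, 4 of the 12 genes had ratios above 1 and 6 had ratios below 1 in both libraries. Past 1.5-fold in both libraries 0 were higher and 1 was lower, beside 1.63% and 1.33% over all measured genes. The lower gene was Aif1, with ratios of 0.565 in TMEM16F KO and 0.506 in vector control. Hmox1, which encodes the heme-degrading enzyme heme oxygenase 1 and was named as a marker of these cells, had at least 1 UMI in 85.4% of TMEM16F KO and 70.5% of vector control Mmp-high macrophages. After each barcode was thinned to 2000 UMIs, the share with Hmox1 was 50.7% in TMEM16F KO and 44.4% in vector control Mmp-high macrophages. The thinned shares were 40.2% and 28.4% in Mmp-low macrophages of TMEM16F KO and vector control, and 10.9% and 4.74% in T cell barcodes of those libraries, which should lack the gene. Without thinning Hmox1 was therefore found in most of these macrophages, but at equal depth not in most of those of vector control. It was not limited to Mmp-high macrophages. Markers of other cell types were low in the Mmp-high macrophages. The summed level of 10 T cell genes outside the rule was 43.0 CPM in TMEM16F KO and 45.6 CPM in vector control cells, that of 8 NK cell genes 29.7 and 16.1 CPM, that of 9 dendritic cell genes 13.3 and 15.9 CPM, and that of 7 B cell genes 4.22 and 3.30 CPM. Among 7 epithelial genes Krt8, Krt18, Krt19, Krt7 and Cldn7 were at 0 UMIs in both libraries, and the sum was 14.8 CPM in TMEM16F KO and 28.4 CPM in vector control cells. The 11 stromal genes summed to 14.3 CPM in TMEM16F KO and 49.1 CPM in vector control cells, with Lum and Pdgfra at 0 in both, and 6 endothelial genes to 21.6 and 16.7 CPM, with Emcn and Cldn5 at 0. Neutrophil genes, Mmp8 included, summed to 85.5 CPM in TMEM16F KO and 41.6 CPM in vector control cells, with Retnlg and Lcn2 at 0 in both. S100a8, on the same list, had a ratio of TMEM16F KO to vector control of 3.28.

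The level of Mmp12 and Mmp13 had no gap at the limit of the rule. Per 10000 UMIs, the sum of both genes had a lowest value of 5.02, a median of 15.2 and a highest value of 214 in TMEM16F KO Mmp-high macrophages. In vector control Mmp-high macrophages the lowest value was 5.03, the median 13.5 and the highest 321. Just inside the limit, at 5 to 6 UMIs per 10000, there were 34 TMEM16F KO and 49 vector control barcodes, and just outside it, at 4 to 5, there were 49 and 42. Spp1, which encodes the secreted phosphoprotein osteopontin, stood at 6398 CPM in TMEM16F KO and 4021 CPM in vector control barcodes just inside, and at 5495 and 4689 CPM just outside. Hmox1 stood at 1249 CPM in TMEM16F KO and 227 CPM in vector control barcodes just inside, and at 667 and 222 CPM just outside. Membership at the edge depends on the number of UMIs: 18 TMEM16F KO and 50 vector control Mmp-high macrophages, all under 2000 UMIs, were included on a single Mmp UMI.

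**Figure D1:**
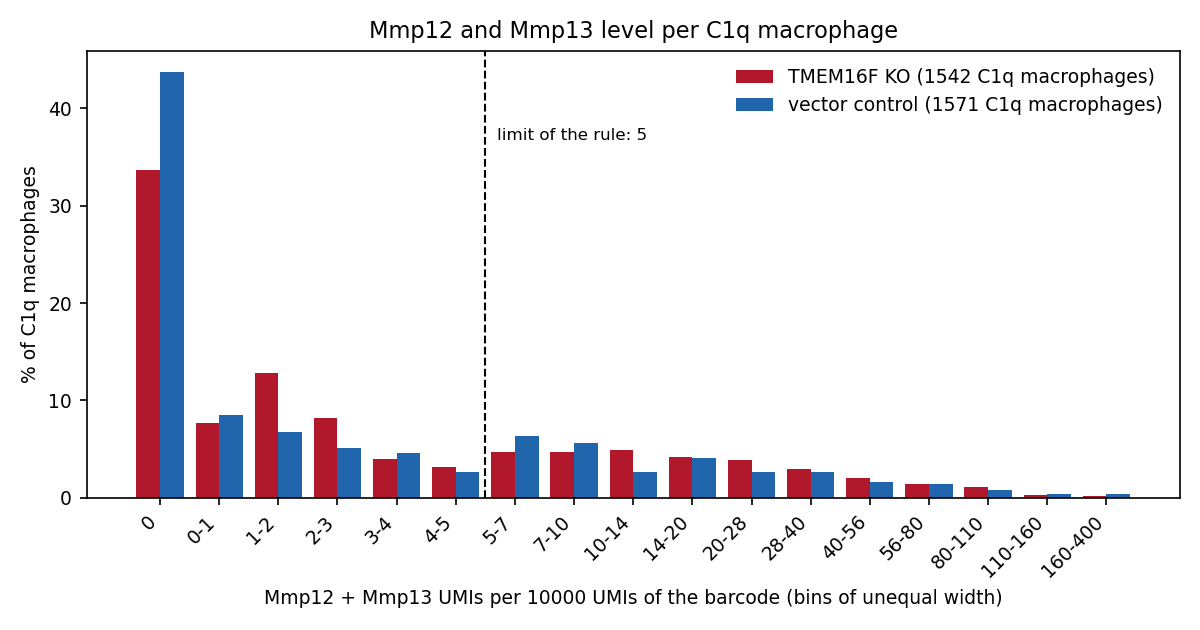
Share of C1q macrophages (y axis, %) in bins of unequal width of Mmp12 plus Mmp13 UMIs per 10000 UMIs (x axis), for TMEM16F KO (1542 cells, red) and vector control (1571 cells, blue). The dashed line marks the limit of 5, to the right of which lie the 471 and 448 Mmp-high macrophages; 33.7% of TMEM16F KO and 43.7% of vector control C1q macrophages had 0 UMIs of both genes.

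Mmp12 made up most of the signal that chose the cells. Mmp12 summed to 2353 CPM (13944 UMIs) in TMEM16F KO and 2402 CPM (10909 UMIs) in vector control Mmp-high macrophages, against 97.1 and 75.2 CPM in Mmp-low macrophages. Mmp13 summed to 249 CPM in TMEM16F KO and 215 CPM in vector control Mmp-high macrophages, against 22.6 and 15.5 CPM in Mmp-low macrophages. In T cell barcodes of the TMEM16F KO and vector control libraries Mmp12 stood at 124 and 47.3 CPM. The Mmp-low level is capped by the rule. A UMI of both genes was found in 49.7% (45.1 to 54.3) of TMEM16F KO and 32.8% (28.5 to 37.4) of vector control Mmp-high macrophages, but after thinning to 2000 UMIs these shares were 21.4% and 19.7%. Mmp13 without Mmp12 was found in 4.25% of TMEM16F KO and 2.68% of vector control cells. Mmp-high macrophages held 43.5% of all Mmp12 UMIs of the TMEM16F KO library and 45.5% of those of the vector control library, and barcodes under the C1q limit held 39.7% and 36.6%.

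Of the 23 Mmp genes in the files, 10 lie in the cluster on chromosome 9 (chr9:7272514-7699585, GRCm38), which runs from Mmp13 and Mmp12 past Mmp3, Mmp10, Mmp8 and Mmp27 to Mmp20 and Mmp7. Of these, 5 had UMIs in Mmp-high macrophages, Mmp20 had 1 UMI in vector control Mmp-low macrophages and 0 in Mmp-high macrophages, and the other 4 had none in either. Mmp12 and Mmp13 were used by the rule, and the cluster was looked at as a group after these values were seen. Mmp8, a collagenase best known from neutrophils, had 187 UMIs (31.6 CPM) in TMEM16F KO and 102 UMIs (22.5 CPM) in vector control Mmp-high macrophages, against 37 UMIs (3.56 CPM) and 28 UMIs (2.51 CPM) in Mmp-low macrophages, ratios of 8.87 (6.21 to 12.99) and 8.95 (5.84 to 14.1). Its levels in the Mmp-high macrophages lay above those in the Mmp-low macrophages in both libraries. Of the 8 neutrophil genes, which include Mmp8, Retnlg and Lcn2 were at 0 in both libraries, but S100a8 was measured. The part of neutrophil RNA in the Mmp8 level was not tested. Mmp10, a stromelysin, had 25 UMIs in TMEM16F KO and 62 in vector control Mmp-high macrophages, against 1 and 3 UMIs in Mmp-low macrophages, ratios of 43.9 (7.19 to 1802) and 50.7 (16.6 to 253). These UMIs came from 6 TMEM16F KO and 11 vector control cells, and 1 barcode held 44.0% and 43.5% of them. Mmp27 had 15 UMIs in TMEM16F KO and 7 in vector control Mmp-high macrophages against 5 and 4 in Mmp-low macrophages. Outside the cluster, 4 genes had at least 20 UMIs in Mmp-high macrophages of both libraries together, and none was higher past 1.5-fold in both libraries. Over all measured genes 1.63% were higher, so this count says nothing particular to these 4 genes. Mmp14, a membrane-bound protease that activates other Mmp proteins, stood at 93.1 CPM in TMEM16F KO and 76.2 CPM in vector control Mmp-high macrophages, against 108 and 99.4 CPM in Mmp-low macrophages. Mmp19 had ratios of 1.13 in TMEM16F KO and 1.59 in vector control, and Mmp25 ratios of 0.468 and 0.417, on 32 and 17 UMIs in Mmp-high macrophages.

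Genes other than Mmp12 and Mmp13 were then compared between Mmp-high and Mmp-low macrophages within each library. A gene was measured with a mean of at least 20 CPM over the 4 groups, and counted as higher or lower past 1.5-fold in both libraries. Of 4797 measured genes, 78 (1.63%) were higher and 64 (1.33%) were lower in Mmp-high macrophages, Mmp12 and Mmp13 included. The median log2 ratio over all measured genes was -0.12 in TMEM16F KO and -0.14 in vector control, so a typical gene lay slightly lower in CPM in the Mmp-high macrophages. With the median gene set to 1, 109 genes were higher and 29 lower.

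**Figure D2:**
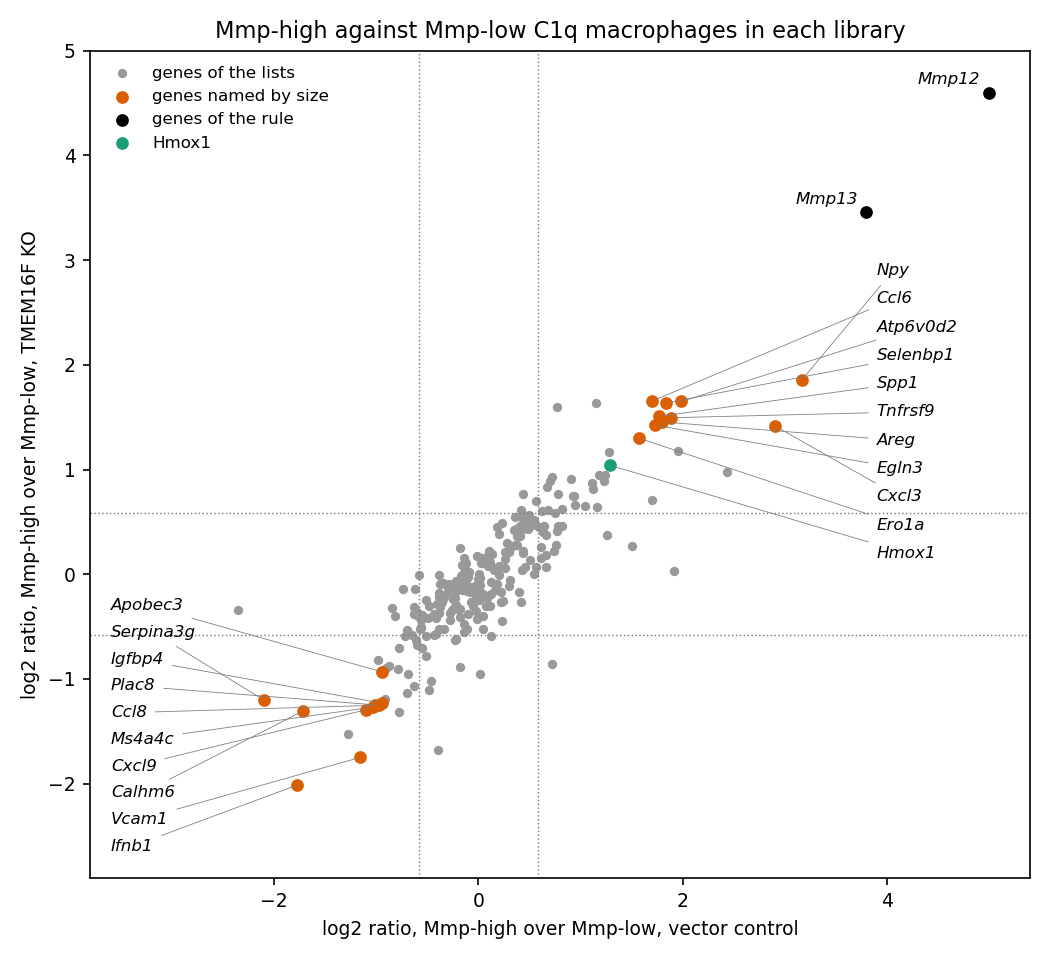
Log2 CPM ratio of Mmp-high over Mmp-low macrophages in the TMEM16F KO library (y axis) and in the vector control library (x axis), for genes of the lists (grey), genes named by size (orange), genes of the rule (black) and Hmox1 (green). Dotted lines mark 1.5-fold; the named genes lie past them on the same side in both libraries, with Npy and Cxcl3 farther out in vector control.

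Genes of lipid handling and of the scar-associated macrophage state were the first group that was high. Spp1 stood at 12325 CPM in TMEM16F KO and 7501 CPM in vector control Mmp-high macrophages, against 4335 and 2204 CPM in Mmp-low macrophages, ratios of 2.84 and 3.40. In T cell barcodes it stood at 1644 CPM in TMEM16F KO and 834 CPM in vector control, so the Mmp-high macrophages lay well above that background. Of 20 measured genes of the list of lipid-associated macrophages, 7 were higher past 1.5-fold in both libraries and 0 were lower. Over all genes 1.63% were higher and 1.33% lower. The list's median log2 ratio was 0.29 in TMEM16F KO and 0.60 in vector control. Cd36, a scavenger receptor for oxidised lipid, stood at 63.6 CPM in TMEM16F KO and 38.5 CPM in vector control Mmp-high macrophages, against 20.5 and 17.3 CPM in Mmp-low macrophages. Cd9, a tetraspanin, had ratios of 1.88 and 1.87 and Lgals3, a galectin, of 1.68 and 1.92. Fabp4, which carries fatty acids in the cell, had ratios of 2.26 in TMEM16F KO and 3.89 in vector control. Trem2, a lipid receptor of the same programme, stayed under the limit, with ratios of 1.23 and 1.22, and so did Apoe, with 0.695 in TMEM16F KO and 1.03 in vector control.

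Genes of glycolysis and of the response to low oxygen were the second group. Of 19 measured genes, 7 were higher past 1.5-fold in both libraries, 0 were lower and 18 had ratios above 1 in both. Over all genes 1.63% were higher and 1.33% lower. The list's median log2 ratio was 0.53 in TMEM16F KO and 0.49 in vector control. Ero1a, an oxidase of the endoplasmic reticulum that is induced by hypoxia, stood at 234 CPM in TMEM16F KO and 276 CPM in vector control Mmp-high macrophages, against 95.2 and 92.7 CPM in Mmp-low macrophages. Both Mmp-high values lay more than 2-fold above both Mmp-low values, with ratios of 2.46 (2.27 to 2.67) and 2.97 (2.74 to 3.23). Egln3, the oxygen sensor PHD3, had ratios of 2.68 in TMEM16F KO and 3.32 in vector control, and Bnip3, a mitophagy receptor, of 1.93 and 2.27. Slc2a1, the glucose transporter GLUT1, had ratios of 1.58 and 1.93, and the glycolytic kinase gene Pgk1 of 1.70 and 1.72. Hif1a itself, whose protein is controlled mainly by its stability, stood at 148 CPM in TMEM16F KO and 129 CPM in vector control Mmp-high macrophages, against 191 and 157 CPM in Mmp-low macrophages. All 16 measured genes of oxidative phosphorylation had ratios below 1 in both libraries, with 1 past the limit and median log2 ratios of -0.16 in TMEM16F KO and -0.32 in vector control, beside -0.12 and -0.14 over all genes.

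Hmox1 stood at 728 CPM in TMEM16F KO and 509 CPM in vector control Mmp-high macrophages, against 354 and 208 CPM in Mmp-low macrophages. Its ratios were 2.06 (1.97 to 2.15) and 2.44 (2.31 to 2.59). The list of heme and iron genes had 2 of 10 measured genes higher and 0 lower, beside 1.63% higher and 1.33% lower over all genes. They were Hmox1 and the ferritin light chain gene Ftl1 (1.53 in TMEM16F KO and 1.60 in vector control), which fell under 1.5-fold in some alternatives. The list of NRF2 and oxidative stress genes had 2 of 11 higher, the metallothionein gene Mt2 (2.24 and 2.43) and the peroxiredoxin gene Prdx1 (1.85 and 1.63), while Txnrd1, Txn1 and Gclc did not pass in both libraries.

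Arg1, which encodes an arginine-degrading enzyme often used to mark suppressive macrophages, was higher in Mmp-high macrophages, and so was Nos2, which makes nitric oxide from the same amino acid. Arg1 stood at 3648 CPM in TMEM16F KO and 3699 CPM in vector control Mmp-high macrophages, against 1913 and 2252 CPM in Mmp-low macrophages. Nos2 stood at 104 CPM in TMEM16F KO and 51.7 CPM in vector control Mmp-high macrophages, against 55.7 and 22.1 CPM in Mmp-low macrophages. In the list of suppressive and growth factor genes 5 of 15 measured genes were higher and 0 lower in both libraries, beside 1.63% and 1.33% over all genes. The other 3 were Areg and Hbegf, ligands of the EGF receptor, and Inhba, a subunit of activin. Areg had ratios of 2.74 in TMEM16F KO and 3.47 in vector control but was seen in 61 and 43 Mmp-high macrophages, and 1 vector control barcode held 27.4% of its UMIs. Further genes named by size were Npy (neuropeptide Y; 3.63 in TMEM16F KO and 9.003 in vector control), the chemokine gene Ccl6 (3.14 and 3.24), Atp6v0d2 (a subunit of the lysosomal proton pump; 3.14 and 3.97), Selenbp1 (a selenium-binding methanethiol oxidase; 3.11 and 3.58) and Tnfrsf9 (the costimulatory receptor 4-1BB; 2.82 and 3.70). T cell barcodes had more Tnfrsf9 and Areg than the Mmp-high macrophages: 778 CPM of Tnfrsf9 in TMEM16F KO and 689 CPM in vector control, and 203 and 234 CPM of Areg. In Mmp-high macrophages Tnfrsf9 stood at 226 CPM in TMEM16F KO and 148 CPM in vector control, and Areg at 101 and 80.4 CPM, and the part of T cell RNA in these levels was not tested. Cxcl3, a neutrophil chemokine, had ratios of 2.67 and 7.49, but 1 vector control barcode held 34.3% of its UMIs and the TMEM16F KO ratio was 1.41 at a limit of 10 Mmp UMIs per 10000.

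Genes of proteolysis outside the Mmp family were examined next. Of 11 measured cathepsin and lysosomal genes 2 were higher and 0 lower in both libraries, beside 1.63% and 1.33% over all genes. They were Ctsl (1.83 in TMEM16F KO and 2.16 in vector control) and Ctsd (1.54 and 1.76). In TMEM16F KO, Ctsd fell under 1.5-fold in 2 alternatives, with a lowest ratio of 1.46. Ctsk, a collagen-degrading cathepsin best known from osteoclasts, was under the CPM limit, with 56 UMIs in TMEM16F KO and 82 in vector control Mmp-high macrophages against 30 and 24 in Mmp-low macrophages, but a single barcode held 44.6% of its UMIs in TMEM16F KO and 69.5% in vector control. The osteoclast genes Oscar and Calcr were at 0 in Mmp-high macrophages of both libraries. Of 5 measured genes of the osteoclast list, 1 was higher past 1.5-fold in both libraries and 0 were lower. It was Atp6v0d2, with ratios of 3.14 in TMEM16F KO and 3.97 in vector control. Among inhibitors, Timp2 stood at 477 CPM in TMEM16F KO and 380 CPM in vector control Mmp-high macrophages, against 311 and 286 CPM in Mmp-low macrophages, and 0 of 6 measured protease inhibitor genes and 0 of 22 measured transcription factor genes passed the limit in both libraries, beside 1.63% higher and 1.33% lower over all genes, so these counts say nothing particular to either list. The AP-1 genes Fos, Jun and Junb had ratios of 0.830, 0.683 and 0.808 in TMEM16F KO and of 1.17, 0.906 and 1.05 in vector control, and they also belong to the genes that rise when tissue is dissociated.

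Several interferon genes were low in Mmp-high macrophages, and most of the list lay below 1. Of 20 measured genes, 5 were lower past 1.5-fold in both libraries, 0 were higher and 19 had ratios below 1 in both. Over all genes 1.33% were lower and 1.63% higher. The list's median log2 ratios were -0.58 in TMEM16F KO and -0.57 in vector control. Cxcl9, a chemokine that draws T cells and is induced by interferon gamma, stood at 483 CPM in TMEM16F KO and 659 CPM in vector control Mmp-high macrophages, against 1183 and 1410 CPM in Mmp-low macrophages. Cxcl10, which acts on the same receptor, stood at 659 and 641 CPM in TMEM16F KO and vector control Mmp-high macrophages, against 1212 and 1176 CPM in Mmp-low macrophages. Both chemokine genes were thus lower past 1.5-fold in each library. Ifnb1, the interferon beta gene itself, had 43 UMIs in TMEM16F KO and 86 in vector control Mmp-high macrophages, against 305 and 723 in Mmp-low macrophages, ratios of 0.248 (0.176 to 0.342) and 0.292 (0.231 to 0.366). Calhm6 (0.404 in TMEM16F KO and 0.303 in vector control), Serpina3g (0.435 and 0.233) and the adhesion molecule gene Vcam1 (0.297 and 0.448) were lower too.

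Several genes of tissue-resident macrophages were low as well. Of 11 measured genes of a resident and Mrc1 list, 5 were lower in both libraries and 0 were higher, beside 1.33% and 1.63% over all genes. The list's median log2 ratio was -0.78 in TMEM16F KO and -0.63 in vector control. Ccl8 stood at 784 CPM in TMEM16F KO and 656 CPM in vector control Mmp-high macrophages, against 1868 and 1321 CPM in Mmp-low macrophages. Cx3cr1, the fractalkine receptor, had ratios of 0.534 and 0.578. In 2 of the 11 genes the ratio was above 1 in both libraries: Pf4 (1.70 in TMEM16F KO and 1.36 in vector control) and the folate receptor gene Folr2 (1.11 and 1.03). Pf4 was abundant, so the summed level of the whole list was 5570 CPM in TMEM16F KO and 3853 CPM in vector control Mmp-high macrophages, against 5411 and 4265 CPM in Mmp-low macrophages. Mrc1, the mannose receptor, was not past the limit, with 255 and 235 CPM in TMEM16F KO and vector control Mmp-high macrophages against 280 and 267 CPM in Mmp-low macrophages. Lyve1 was at 0 in Mmp-high macrophages of both libraries. Of 11 measured monocyte genes, 1 was higher and 2 were lower in both libraries, beside 1.63% and 1.33% over all genes. In both libraries 6 had ratios above 1, with median log2 ratios of 0.03 in TMEM16F KO and 0.08 in vector control. The higher gene was F13a1, a subunit of coagulation factor XIII, at 1.52 in TMEM16F KO and 1.54 in vector control. F13a1 fell under 1.5-fold in 4 alternatives in TMEM16F KO and 2 in vector control, with a lowest ratio of 1.31 in each. The 2 lower genes were Ly6c2 and Plac8, with ratios of 0.401 and 0.420 in TMEM16F KO and 0.582 and 0.508 in vector control, though in vector control they were 1.05 and 0.809 at a C1q limit of 80 per 10000. Genes of MHC class II, which present antigen to CD4 T cells, did not pass, with 6 of 8 below 1 in both libraries and H2-Aa at ratios of 0.766 in TMEM16F KO and 0.931 in vector control.

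Several of these genes were then described over bands of the Mmp level among all C1q macrophages. Mmp12 and Mmp13 chose the cells, and cells without an Mmp UMI are Mmp-low macrophages, so the bands are a description and no separate support. Hmox1 stood at 353, 354, 554, 567, 738 and 1422 CPM in TMEM16F KO C1q macrophages with 0, above 0 to 5, 5 to 10, 10 to 20, 20 to 50 and 50 or more Mmp UMIs per 10000, and at 225, 192, 287, 282, 608 and 1534 CPM in vector control. Below the limit Hmox1 thus did not climb with the Mmp level in either library, and above it the highest band stood highest. Ero1a stood at 429 CPM in TMEM16F KO and 515 CPM in vector control cells of the highest band, against 83.0 and 84.2 CPM in cells without an Mmp UMI. Cxcl9 stood at 115 CPM in TMEM16F KO and 56.2 CPM in vector control cells of the highest band, against 1236 and 1386 CPM in cells without an Mmp UMI. Cells of the highest band thus had more Ero1a and less Cxcl9 than cells without an Mmp UMI in both libraries. In TMEM16F KO, Spp1 stood at 22281 CPM in the highest band and at 13430 CPM in the band of 20 to 50. In vector control Spp1 was lower in the highest band, at 8731 CPM against 12470 CPM in the band of 20 to 50. H2-Aa lay at 2990 CPM in TMEM16F KO and 2498 CPM in vector control cells of the highest band, against 6222 and 5265 CPM without an Mmp UMI. The highest band held 60 TMEM16F KO and 51 vector control cells.

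**Figure D3:**
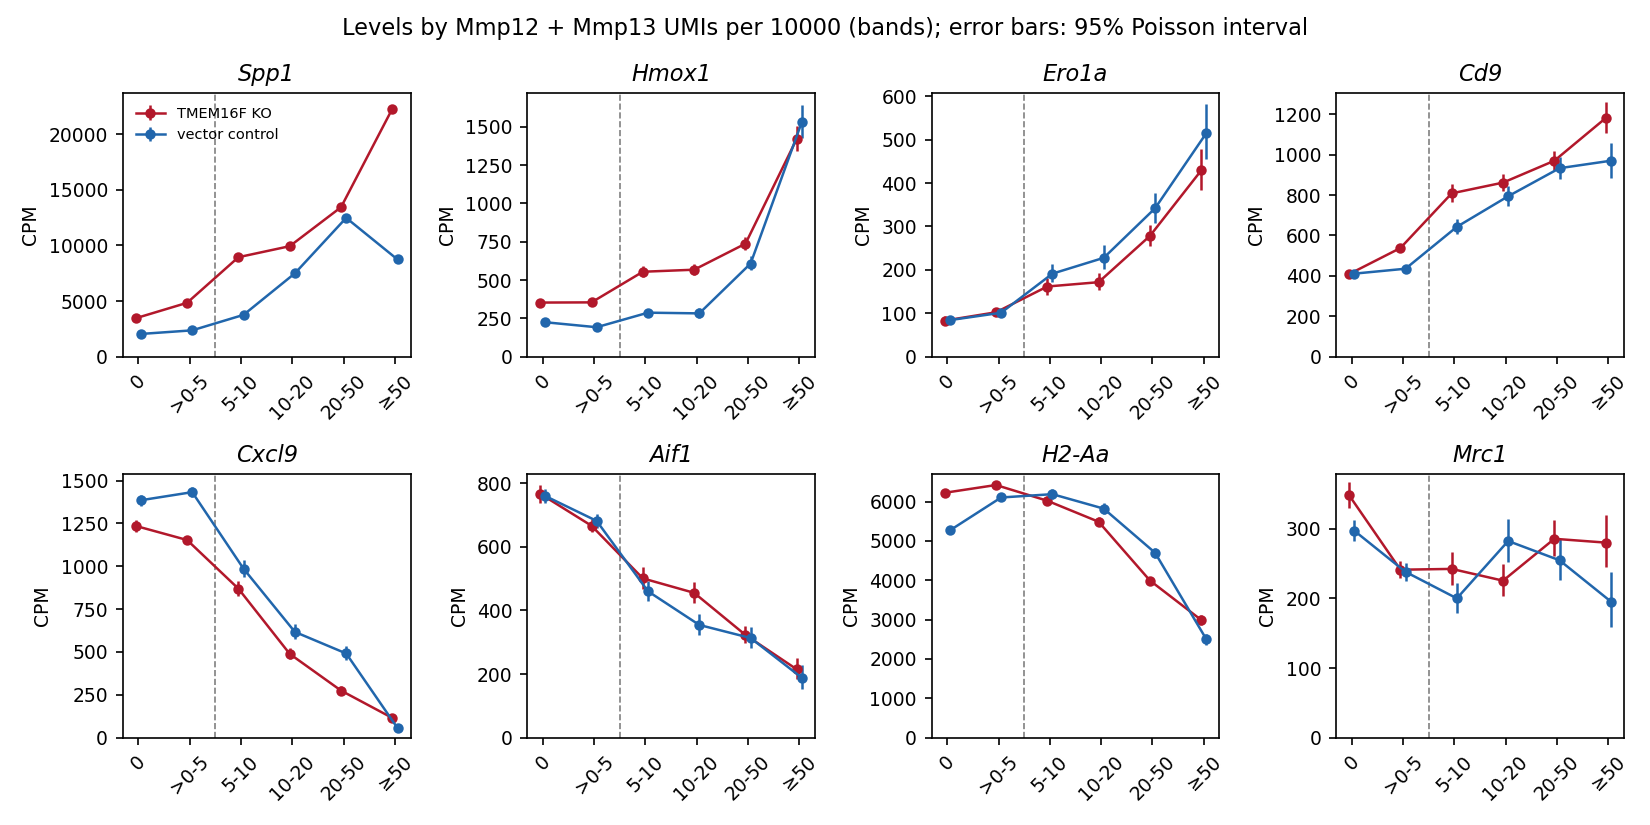
CPM of 8 genes (y axes) in C1q macrophages grouped by Mmp12 plus Mmp13 UMIs per 10000 (x axis), in TMEM16F KO (red) and vector control (blue), with exact 95% Poisson intervals for counting error. Points to the right of the dashed line are Mmp-high macrophages: Spp1, Hmox1, Ero1a and Cd9 lie higher there, Cxcl9 and Aif1 lower, H2-Aa falls in the highest bands, and Mrc1 shows no steady direction.

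Within the Mmp-high macrophages, those with an Mmp13 UMI had more Hmox1 and less Cxcl9 than those without. Mmp13 is a gene of the rule and counts towards the Mmp level, so this split is a description and no separate support. There were 254 such cells in TMEM16F KO and 159 in vector control, with median depths of 12664 and 10928 UMIs, against 10841 and 6900 UMIs in Mmp-high macrophages without Mmp13, and the part of depth in this split was not tested. Hmox1 stood at 946 CPM in TMEM16F KO and 803 CPM in vector control cells with Mmp13, against 441 and 304 CPM in those without. Cxcl9 stood at 243 and 447 CPM in TMEM16F KO and vector control cells with Mmp13, against 798 and 806 CPM in those without. A minority carried the mannose receptor at 5 or more Mrc1 UMIs per 10000: 19.1% (15.7 to 23.0) of TMEM16F KO and 14.1% (10.98 to 17.6) of vector control Mmp-high macrophages, against 21.3% and 17.5% of Mmp-low macrophages. These cells had 10041 CPM of Spp1 in TMEM16F KO and 8783 CPM in vector control, and 1745 and 3033 CPM of H2-Aa, against 5363 and 5575 CPM of H2-Aa in Mmp-high macrophages with less Mrc1.

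The share of Mmp-high macrophages among C1q macrophages was near 30% in both libraries and its ratio depended on depth and on the limits. They made up 30.5% (28.3 to 32.9) of C1q macrophages in TMEM16F KO and 28.5% (26.3 to 30.8) in vector control, a ratio of 1.07 (0.939 to 1.22). Of all barcodes they made up 7.86% (7.19 to 8.57) in TMEM16F KO and 8.53% (7.79 to 9.32) in vector control, a ratio of 0.922 (0.808 to 1.05). These intervals cover counting within 1 library of each group and not the spread between tumours. The 2 ratios point in opposite directions. Thinned to 2000 UMIs, the share of C1q macrophages was 42.7% in TMEM16F KO and 35.0% in vector control, a ratio of 1.22, and the ratio over all barcodes was 1.12 among barcodes with at least 3000 UMIs. By depth, the share of C1q macrophages was 34.4% in TMEM16F KO and 38.8% in vector control at 1000 to 2000 UMIs, 21.9% and 23.8% at 3000 to 6000, and 23.8% and 25.4% at 6000 to 12000. At 12000 UMIs or more it was 40.9% (36.9 to 45.04) in TMEM16F KO and 28.9% (25.3 to 32.7) in vector control, and of the 5 depth bands this was the one whose intervals did not overlap. With a limit of 10 Mmp UMIs per 10000 the share was 21.1% in TMEM16F KO and 16.6% in vector control, a ratio of 1.27. Among C1q barcodes at or above the Mmp limit, 5.23% (3.45 to 7.57) in TMEM16F KO and 10.4% (7.87 to 13.4) in vector control had been left out for cycling genes, beside 6.05% and 14.9% of those under the limit.

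Gene levels were next compared between the 2 libraries within the Mmp-high macrophages. Of 4642 genes with a mean of at least 20 CPM, 117 (2.52%) were higher in TMEM16F KO past 1.5-fold and 52 (1.12%) were lower, with a median log2 ratio of 0.03 over all of them. The same comparison in Mmp-low macrophages gave 193 genes higher (3.92%) and 71 lower (1.44%) of 4924. Ano6 stood at 28.9 CPM (171 UMIs) in TMEM16F KO and 22.2 CPM (101 UMIs) in vector control Mmp-high macrophages, which are host cells and were not edited.

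Mmp12, Mmp13, Mmp14 and Timp2 lay within 1.5-fold between the libraries, while other genes of proteolysis did not. The ratio of TMEM16F KO to vector control was 0.980 (0.955 to 1.00) for Mmp12 and 1.15 (1.07 to 1.25) for Mmp13, both set in part by the rule. It was 1.22 (1.07 to 1.40) for Mmp14, 1.25 (1.18 to 1.33) for Timp2 and 1.43 (1.36 to 1.50) for Hmox1. Ctsl was higher, at 2642 CPM in TMEM16F KO and 1677 CPM in vector control (ratio 1.58, and 1.43 at an Mmp limit of 10). Timp1, an inhibitor of Mmp proteins, was lower, at 33.6 CPM in TMEM16F KO and 55.7 CPM in vector control (ratio 0.603, under 1.5-fold in 3 alternatives). For Timp1, 3 barcodes held 58 of 199 UMIs in TMEM16F KO and 106 of 253 in vector control. In Mmp-low macrophages Timp1 ran the other way, at 60.8 CPM in TMEM16F KO and 33.9 CPM in vector control. Mmp10 was lower, with 4.22 CPM in TMEM16F KO and 13.7 CPM in vector control, on 25 and 62 UMIs and under the CPM limit. None of the 19 measured hypoxia and glycolysis genes was past 1.5-fold in either direction, and their median log2 ratio was -0.08. Over all genes 2.52% were higher and 1.12% lower, so this count says nothing particular to the list.

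A minority of interferon genes was higher in TMEM16F KO Mmp-high macrophages. Of 20 measured genes of the list, 6 were higher past 1.5-fold, 1 was lower and 18 had ratios above 1. Over all genes 2.52% were higher and 1.12% lower. In Mmp-low macrophages 5 of 20 list genes were higher and 0 lower, beside 3.92% and 1.44% over all genes. The list's median log2 ratio was 0.38 in Mmp-high and 0.45 in Mmp-low macrophages. Gbp2, a guanylate-binding GTPase of defence against intracellular microbes, stood at 261 CPM in TMEM16F KO and 130 CPM in vector control Mmp-high macrophages, a ratio of 2.01 (1.83 to 2.21), and at 328 and 234 CPM in Mmp-low macrophages. T cell barcodes had 93.4 CPM of Gbp2 in TMEM16F KO and 58.1 CPM in vector control. Ifi47 and Iigp1c, GTPases of the same family of defence genes, had ratios of 2.01 and 2.44, and Iigp1c has a near-identical copy, so its count is uncertain. Ifitm1, a membrane protein that restricts viral entry, stood at 727 CPM in TMEM16F KO and 319.5 CPM in vector control. Il18bp, a secreted inhibitor of interleukin 18, stood at 69.0 CPM in TMEM16F KO and 33.2 CPM in vector control. The genes Gbp5, Zbp1, Oasl2 and Igtp, also counted as higher, fell under 1.5-fold in at least 1 alternative each. Ifi27l2a was lower, at 229 CPM in TMEM16F KO and 407 CPM in vector control, Cxcl9 had a ratio of 0.733 and Cxcl10 of 1.03, so the list did not move as a block. Ifnb1, which is not on the list, ran the other way, with 7.26 CPM in TMEM16F KO and 18.9 CPM in vector control Mmp-high macrophages (43 and 86 UMIs), and with a ratio of 0.452 in Mmp-low macrophages. The MHC class II genes lay the other way, with 7 of 7 measured genes below 1, 1 past the limit (H2-DMb2, 0.521) and a median log2 ratio of -0.20, beside 0.01 in Mmp-low macrophages.

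Effector and growth factor genes were the second group with several higher genes in TMEM16F KO, in Mmp-low as well as in Mmp-high macrophages. Of 15 measured suppressive and growth factor genes, 6 were higher and 1 was lower past 1.5-fold, beside 2.52% and 1.12% over all genes. In Mmp-low macrophages 7 of 14 were higher and 1 was lower. The list's median log2 ratio was 0.26 in Mmp-high and 0.62 in Mmp-low macrophages. Nos2 stood at 104 CPM in TMEM16F KO and 51.7 CPM in vector control Mmp-high macrophages, a ratio of 2.00 (1.72 to 2.34), and was found after thinning in 16.6% (13.2 to 20.4) and 8.22% (5.61 to 11.5) of the cells. In Mmp-low macrophages the ratio of Nos2 was 2.53. Inhba stood at 95.2 CPM in TMEM16F KO and 42.3 CPM in vector control, and Gdf15, a stress cytokine of the TGF beta family, at 71.2 and 36.1 CPM. Both were also higher in TMEM16F KO Mmp-low macrophages, with ratios of 2.76 and 3.87. Cd274, the checkpoint ligand PD-L1, had a ratio of 1.57, Il1rn of 1.53 and Ptgs2 of 1.53, and each fell under 1.5-fold in 3 or more alternatives. Arg1 did not differ past the limit, with a ratio of 0.986 (0.967 to 1.01), and Pdgfa was lower, at 39.5 CPM in TMEM16F KO and 72.2 CPM in vector control.

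Spp1 stood at 12325 CPM in TMEM16F KO and 7501 CPM in vector control Mmp-high macrophages, a ratio of 1.64 that was 1.40 at a limit of 10 Mmp UMIs per 10000. In Mmp-low macrophages its ratio was 1.97, and in T cell barcodes the levels were 1644 CPM in TMEM16F KO and 834 CPM in vector control, so the difference in Spp1 was not limited to Mmp-high macrophages. Of 20 measured lipid-associated genes, 4 were higher and 0 lower, beside 2.52% higher and 1.12% lower over all genes. Apart from Spp1 these were Cd36 (1.65), Pla2g7 (1.62) and Fabp5 (1.53, under 1.5-fold in 6 alternatives). Fcgr4, an activating receptor for IgG, stood at 328 CPM in TMEM16F KO and 165 CPM in vector control, a ratio of 1.99 (1.83 to 2.17), and after thinning was found in 40.7% of TMEM16F KO and 24.4% of vector control cells (81.5% and 57.6% without thinning), beside 6.14% and 1.48% of T cell barcodes. Npy stood at 69.0 CPM in TMEM16F KO and 31.5 CPM in vector control, a ratio of 2.19 that was 1.49 as a mean over cells. In Mmp-low macrophages the ratio of Npy was 5.44. Pf4, a chemokine of platelets and macrophages, stood at 3954 CPM in TMEM16F KO and 2369 CPM in vector control.

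Among genes lower in TMEM16F KO, Cx3cr1 stood at 19.4 CPM in TMEM16F KO and 65.2 CPM in vector control Mmp-high macrophages, a ratio of 0.298 (0.238 to 0.370), and at 36.3 and 112.8 CPM in Mmp-low macrophages. After thinning it was found in 1.59% (0.642 to 3.25) of TMEM16F KO and 8.22% (5.61 to 11.5) of vector control Mmp-high macrophages, while T cell barcodes, some of which express the gene, had 5.47% and 6.13%. Cx3cr1 was thus lower in TMEM16F KO in both kinds of macrophage. Ccr2, the receptor that brings monocytes into tissue, stood at 94.3 CPM in TMEM16F KO and 169 CPM in vector control, and Gatm, an enzyme of creatine synthesis, at 137 and 268 CPM. Plxdc2 had a ratio of 0.416 (0.338 to 0.512) and Hmgcs1, an enzyme of cholesterol synthesis, of 0.535 (0.444 to 0.643). The heat shock genes Hspa1a and Hspa1b had ratios of 0.432 and 0.375. These 2 genes are near-identical, respond to tissue handling, and were also lower in TMEM16F KO Mmp-low macrophages, with ratios of 0.570 and 0.507, and the part of handling in this was not tested. Of 10 measured genes of phosphatidylserine exposure and uptake, beside 2.52% higher and 1.12% lower over all genes, 1 was higher, the uptake receptor Mertk (46.2 CPM in TMEM16F KO and 27.7 CPM in vector control), and 1 was lower, the related receptor Axl (52.5 and 83.2 CPM), and each fell under 1.5-fold in 1 alternative.

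The largest ratios in both directions rested on few barcodes. Gzmc, a granzyme of cytotoxic lymphocytes, stood at 72.1 CPM in TMEM16F KO and 18.3 CPM in vector control Mmp-high macrophages, but 3 TMEM16F KO barcodes held 318 of its 427 UMIs, T cell barcodes had 1389 and 1056 CPM of it, and the ratio of 3.94 was 3.09 without the top barcode of each library and 1.13 as a mean over cells. Chil3, a chitinase-like protein of monocytes, stood at 12.5 CPM in TMEM16F KO and 82.8 CPM in vector control, but 1 vector control barcode held 289 of 376 UMIs, and the ratio of 0.151 was 0.511 without the top barcode of each library and 0.720 at a C1q limit of 80 per 10000.

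**Figure D4:**
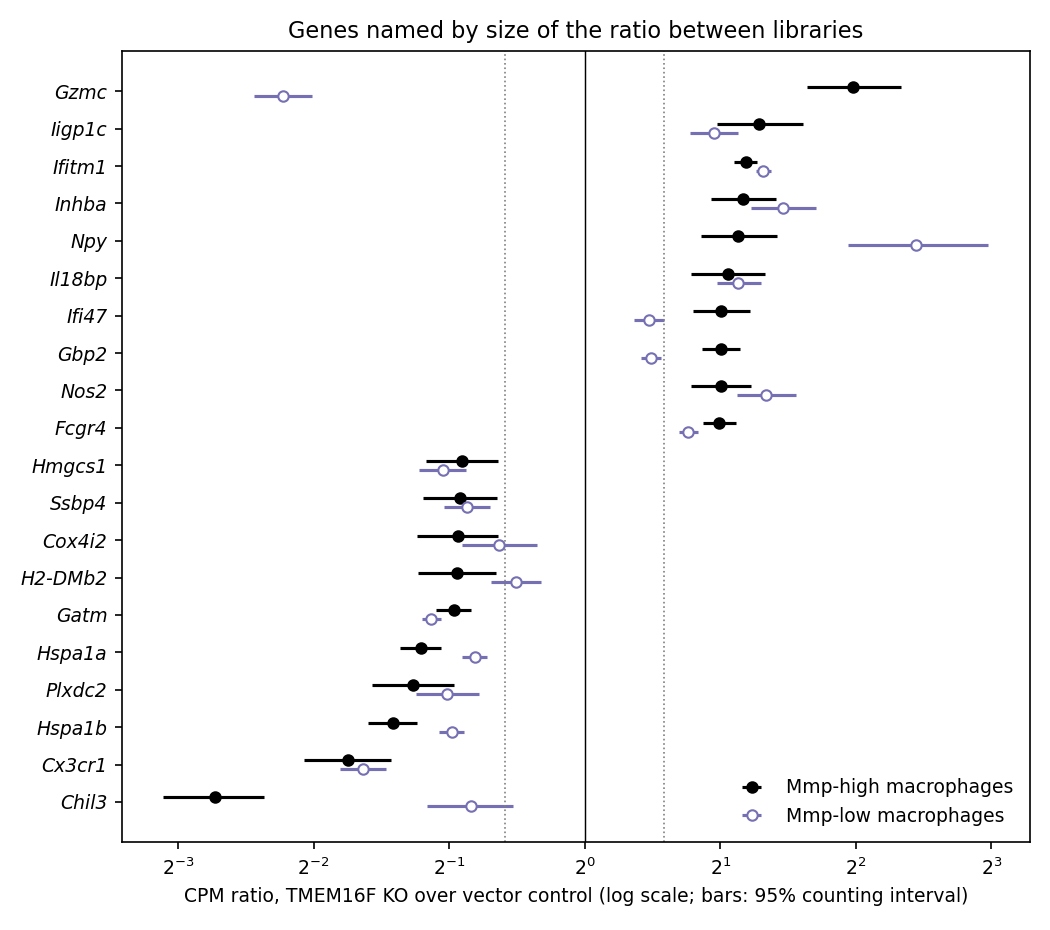
CPM ratio of TMEM16F KO over vector control (x axis, log scale) for the 20 genes named by size of the ratio in Mmp-high macrophages (filled), with the same genes in Mmp-low macrophages (open) and exact 95% intervals for counting error. Dotted lines mark 1.5-fold; most genes lie on the same side in both kinds of cell, and Gzmc lies at 3.94 in Mmp-high and 0.214 in Mmp-low macrophages.

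**Figure D5:**
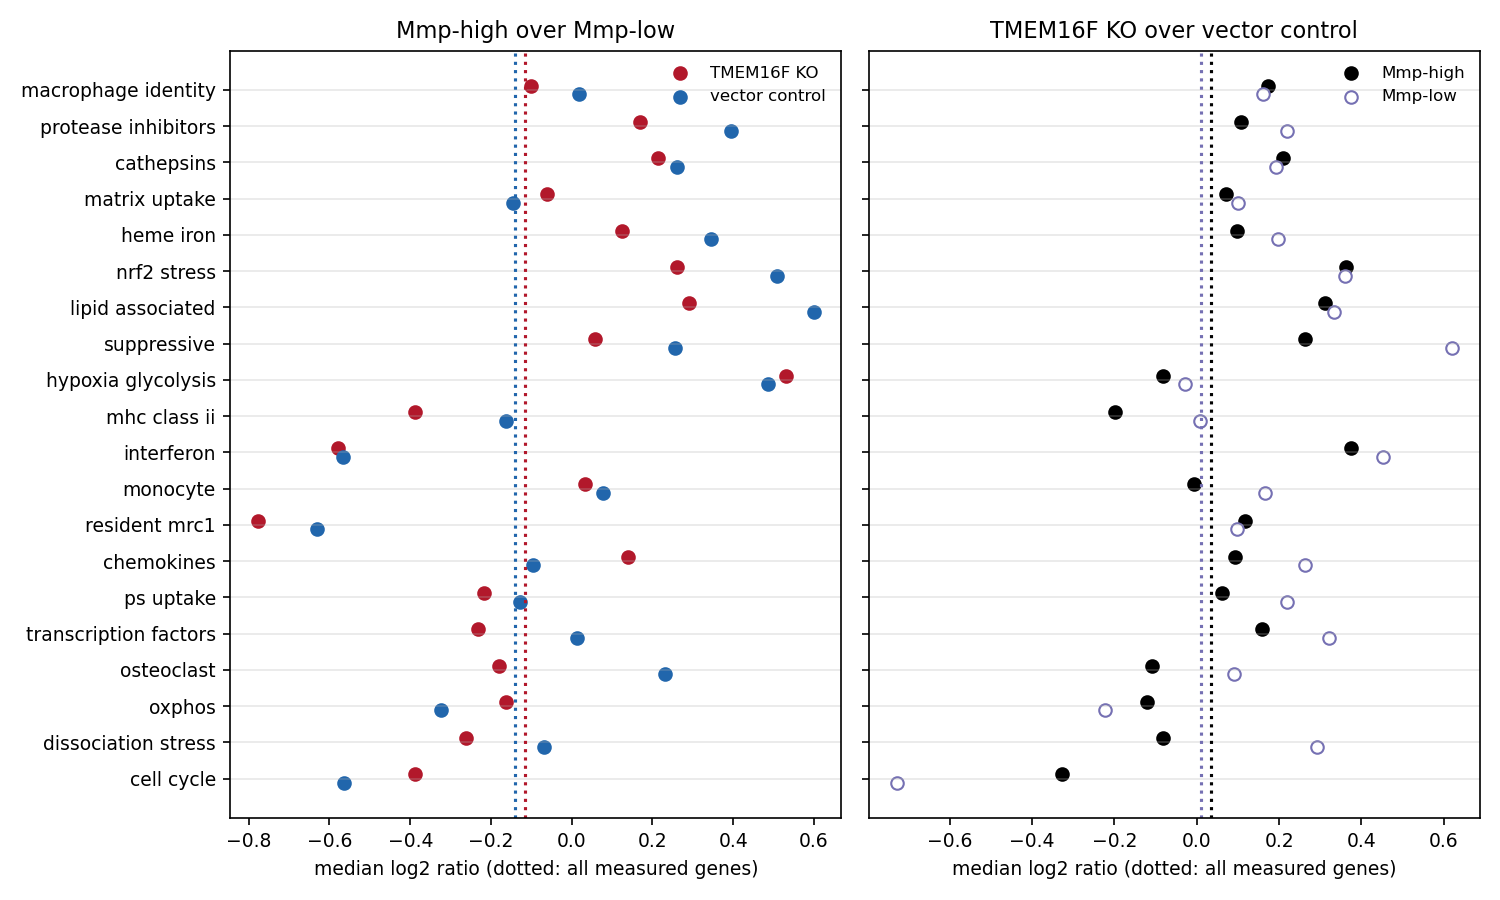
Median log2 ratio (x axes) of the measured genes of each list with at least 5 of them, for Mmp-high over Mmp-low macrophages in each library (left) and for TMEM16F KO over vector control in Mmp-high and Mmp-low macrophages (right); dotted lines are the medians of all measured genes. Hypoxia and glycolysis genes lie high and interferon genes low on the left (0.53 and -0.58 in TMEM16F KO), while on the right interferon genes lie at 0.38 and hypoxia genes at -0.08 in Mmp-high macrophages.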

How the data were processed

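The values deposited by the authors are raw UMI counts of 34290 genes in each barcode, written by Cell Ranger 8.0.0 according to the matrix headers. The submitters' processing notes name the build mm10 and the tool Seurat 3.1.1, without saying what Seurat did. The labels' protocols name a droplet kit that reads the 3′ end of transcripts. The design text states 10782 cells, while the files hold 11246 barcodes. No annotation of cells was used and no clustering was made: cells were chosen by the rule alone, with no filter beyond it.

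UMI counts were summed over the cells of each kind and library and divided by their total (CPM). A ratio past 1.5-fold was counted as higher or lower, for genes with a mean of at least 20 CPM. Named genes were the 10 highest and 10 lowest of TMEM16F KO over vector control, and the 12 highest and 10 lowest of Mmp-high over Mmp-low by the smaller of the 2 ratios, with at least 50 CPM in the higher group, beside members of 29 gene lists. Mitochondrial, ribosomal protein, haemoglobin, immunoglobulin and T cell receptor genes and gene models without a given name were left out of the naming. All list genes were in the files, 5 under a newer symbol. The members and lists were chosen with earlier results of these data known. T cell barcodes had at least 3 Cd3 UMIs and under 10 C1q UMIs per 10000 and served as a measure of free RNA. Shares of cells with a UMI were also computed after thinning each barcode to 2000 UMIs, which left out 31 TMEM16F KO and 83 vector control Mmp-high macrophages. Intervals are Clopper-Pearson for shares, Poisson for summed UMIs and conditional binomial for ratios. The ratio and its calls were tested on simulated data. These were Poisson counts of summed cells without spread between cells or tumours, so the test does not cover that spread. Doublets were kept in the main values: Scrublet in scanpy 1.11.5 marked 0 barcodes with its automatic threshold, which therefore did not work, and leaving out its highest scores was an alternative. Promoter sequences and motif shares came from the RefSeq table (GRCm38.p6) and coordinates of genes from GENCODE (GRCm38). Python 3.11.15, numpy 2.4.6, scipy 1.17.1 and pandas 2.3.3 were used.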

Additional observations from a re-analysis of the deposited data

Results flagged for a closer look

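The ratio of Mmp-high to Mmp-low macrophages of Timp1, which encodes an inhibitor of Mmp proteins, ran in opposite directions in the 2 libraries: 0.552 in TMEM16F KO and 1.64 in vector control. Timp1 stood at 33.6 CPM (199 UMIs in 81 cells) in TMEM16F KO and 55.7 CPM (253 UMIs in 61 cells) in vector control Mmp-high macrophages, against 60.8 and 33.9 CPM in Mmp-low macrophages, and 3 vector control Mmp-high barcodes held 106 of its UMIs. The ratio of Gzmc was 3.38 in TMEM16F KO and 0.184 in vector control, and 3 barcodes held 318 of 427 UMIs in TMEM16F KO Mmp-high macrophages and 908 of 1110 UMIs in vector control Mmp-low macrophages. The difference between libraries was not tested for either gene.

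Barcodes with at least 5 Mmp UMIs per 10000 but under 40 C1q UMIs per 10000 were outside the comparisons. There were 410 of them in TMEM16F KO and 250 in vector control, with median depths of 7021 and 6307 UMIs. Their Mmp12 level was 2646 CPM in TMEM16F KO and 3125 CPM in vector control, their C1qa level 410 and 399 CPM, their Il1b level 2665 and 2045 CPM and their Inhba level 339 and 236 CPM, beside 1324 and 1287 CPM of Il1b and 95.2 and 42.3 CPM of Inhba in Mmp-high macrophages.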

How the results depend on the processing

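No paired analysis was possible because each group has 1 library. The share of Mmp-high macrophages among all barcodes was 7.04% in TMEM16F KO and 6.26% in vector control (ratio 1.12) with at least 3000 UMIs, and 5.96% and 5.18% (ratio 1.15) with at least 6000 UMIs. With an Mmp limit of 10 it was 5.44% and 4.97% (ratio 1.09), and among C1q macrophages 21.1% and 16.6% (ratio 1.27). With a C1q limit of 80 it was 5.22% and 5.597%, and 26.1% of C1q macrophages in vector control, and with no Cd3 UMI allowed 5.34% and 6.09%. Thinned to 2000 UMIs it was 13.8% and 14.0%, and 42.7% and 35.0% of C1q macrophages. Genes higher and lower in TMEM16F KO numbered 198 and 81 with no Cd3 UMI allowed, 519 and 112 as a mean over cells, 375 and 267 at a mean CPM of 5, and 60 and 20 at 50. Lower genes numbered 87 with mitochondrial, ribosomal and haemoglobin genes left out of the total, where 52.2% of calls were higher, beside 69.2%, and 82.3% as a mean over cells, so the balance of higher and lower genes depends on the scaling. Genes lower in Mmp-high than in Mmp-low macrophages numbered 97 at an Mmp limit of 10, 29 with the median ratio set to 1, 186 at a mean CPM of 5, 33 at 50 (with 47 higher) and 138 against cells with 0 Mmp UMIs. The ratio of Mmp-high to Mmp-low macrophages turned for Ly6c2 in vector control at a C1q limit of 80 (1.05) and for Pclaf in vector control as a mean over cells (1.08). Of 50 genes of the lists and named genes past 1.5-fold in TMEM16F KO over vector control, 29 stayed past it in all alternatives run, and of 62 past it in Mmp-high over Mmp-low macrophages 51 did in TMEM16F KO and 49 in vector control. The alternatives with at least 6000 UMIs and without each gene's top barcode were chosen after seeing the data. The cause of these shifts was not tested. Depth limits the rule itself, since under 2000 UMIs 1 Mmp UMI meets it.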
